A study of Mus musculus and Homo sapiens with 22 samples.

Results

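PROX1 occupancy was examined at 10 genes that drive or brake the cell cycle: the transcription factor genes Myc and Mycn, the cyclin genes Ccnd1 and Ccne1, the kinase genes Cdk4 and Cdk6, the transcription factor gene E2f1, and the inhibitor genes Cdkn1a, Cdkn1b and Cdkn2a. The set is 10 of 21938 protein-coding genes in the mouse annotation and 10 of 20033 in the human annotation. A peak was assigned to a gene when its summit lay in the gene body or within 50 kb of it. The rule that assigns peaks uses position only. By this rule 57 of 50159 liver peaks, 72 of 40531 peaks of mouse embryonic fibroblasts (MEFs) and 24 of 14369 Hep3B peaks belonged to the 10 genes.

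PROX1 is a homeodomain transcription factor of hepatocytes and lymphatic endothelium, and CUT&RUN maps where it sits by letting an antibody direct a nuclease to the chromatin around it. The series held 22 samples in 6 groups. Livers of wild-type C57BL/6J mice, 2 to 3 months old, gave nuclei for 5 samples with a PROX1 antibody and 5 with IgG; the labels call them hepatocyte nuclei, but no step that sorts cell types is named. The liver data concern the endogenous factor. Wild-type C57BL/6N MEFs from E13.5 embryos carried rtTA and tetO-FLAG-mmProx1 lentiviruses and received doxycycline at 2 µg/ml for 2 days, with 3 samples for a FLAG antibody and 3 for IgG. Hep3B, an established human hepatocellular carcinoma line, carried pLIX-Puro-hsPROX1 after puromycin selection and received doxycycline at the same dose for the same 2 days, again with 3 FLAG and 3 IgG samples. In both cultures the transgene was driven by a doxycycline-inducible promoter, and the labels name no cloning step. Liver differs from both cultures in the antibody, the tissue and whether PROX1 was the cells' own, and the cultures differ from each other in species and cell type, so the parts of these in any difference cannot be told apart.

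Each list pools the antibody samples of 1 group. No value below therefore has a spread between animals or cultures, the depth of the samples is unknown, and no test was possible, so all differences are descriptions of the lists. The values of different lists were not put on a common scale by the authors. A peak's strength is given as the percentile of its summit −log10 p, that is, the percent of peaks in the same list with a lower value plus 0.5 of the ties, and it compares peaks of 1 list only. Among all protein-coding genes, 26.5% in liver, 55.1% in MEFs and 43.6% in Hep3B had a promoter peak, that is, a summit within 1 kb of a transcription start site (TSS). Of the marker genes, all 6 hepatocyte marker genes had a promoter peak in liver and 0 of 6 in MEFs and in Hep3B, whereas the 6 fibroblast marker genes had one in 6 cases in MEFs, in 1 in liver and in 1 in Hep3B. Of 3 cholangiocyte markers 0, 1 and 2 had a promoter peak in liver, MEFs and Hep3B, and all 3 endothelial and all 3 macrophage markers had none in any list. Hep3B is of hepatocyte origin, yet its list has no promoter peak at those 6 hepatocyte genes. Occupancy at a marker is not its expression.

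Entry into the cell cycle from G1 rests on D-type cyclins with CDK4 or CDK6 and on cyclin E with CDK2, which phosphorylate the retinoblastoma protein and release E2F factors to switch on replication genes. MYC proteins drive growth and raise the transcription of cyclin and CDK genes, while the inhibitors encoded by Cdkn1a and Cdkn1b block cyclin-CDK complexes and those encoded by Cdkn2a restrain CDK4 and CDK6 or, from a second reading frame, stabilise p53. Adult hepatocytes are mostly quiescent, and embryonic fibroblasts and carcinoma cells in culture divide.

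The lists differed in where the peaks near the 10 genes lay. In MEFs all 10 genes had a peak within 1 kb of one of their own TSSs, beside 55.1% of all protein-coding genes. In Hep3B 7 of 10 did, beside 43.6%, and MYCN, CCND1 and CCNE1 did not. In liver only Myc, Cdk6, Cdkn1a and Cdkn1b did, 4 of 10 beside 26.5%. At least 1 peak in the wider window was present for 8 of 10 genes in liver (69.2% of all genes), 10 of 10 in MEFs (81.3%) and 8 of 10 in Hep3B (71.9%). The window shares in liver and Hep3B lie close to those of all genes. Of the assigned peaks, 4 of 57 in liver sat at the promoter of the gene itself, 8 at the promoter of another protein-coding gene and 45 at neither, whereas the split was 18, 12 and 42 of 72 in MEFs and 9, 8 and 7 of 24 in Hep3B.

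**Figure D1:**
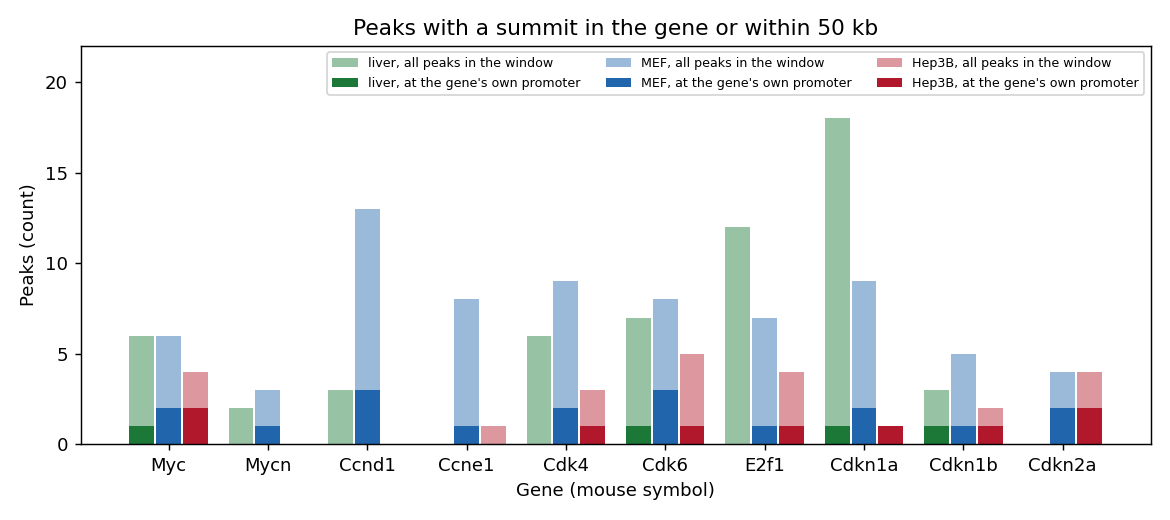
Bars give the number of peaks (vertical axis, count) assigned to each gene in the pooled liver, MEF and Hep3B lists; the dark lower part of a bar counts peaks within 1 kb of the gene's own TSS. Liver has 18 peaks around Cdkn1a and 12 around E2f1 but only 4 promoter peaks in all, and the MEF bars have a dark part at all 10 genes. Pooled lists have no error bars.

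Peaks were dense around some of these genes. The median over the 10 genes was 2.79 peaks per 100 kb of window in liver, 6.03 in MEFs and 1.48 in Hep3B, beside medians over all protein-coding genes of 1.85, 2.73 and 0.9. The assigned peaks lay near the middle of their lists in strength: the median percentile of the liver peaks was 60.3, that of the MEF peaks 45.8 and that of the Hep3B peaks 48.5, and 5 of 57, 5 of 72 and 2 of 24 lay above the 90th percentile of their list. At the promoters the lists differed. The strongest own-promoter peak had a median percentile of 10.0 over the 4 liver genes with one, against 37.0 over all liver genes with a promoter peak. The same medians were 75.8 against 74.7 in MEFs and 45.7 against 63.8 in Hep3B.

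**Figure D2:**
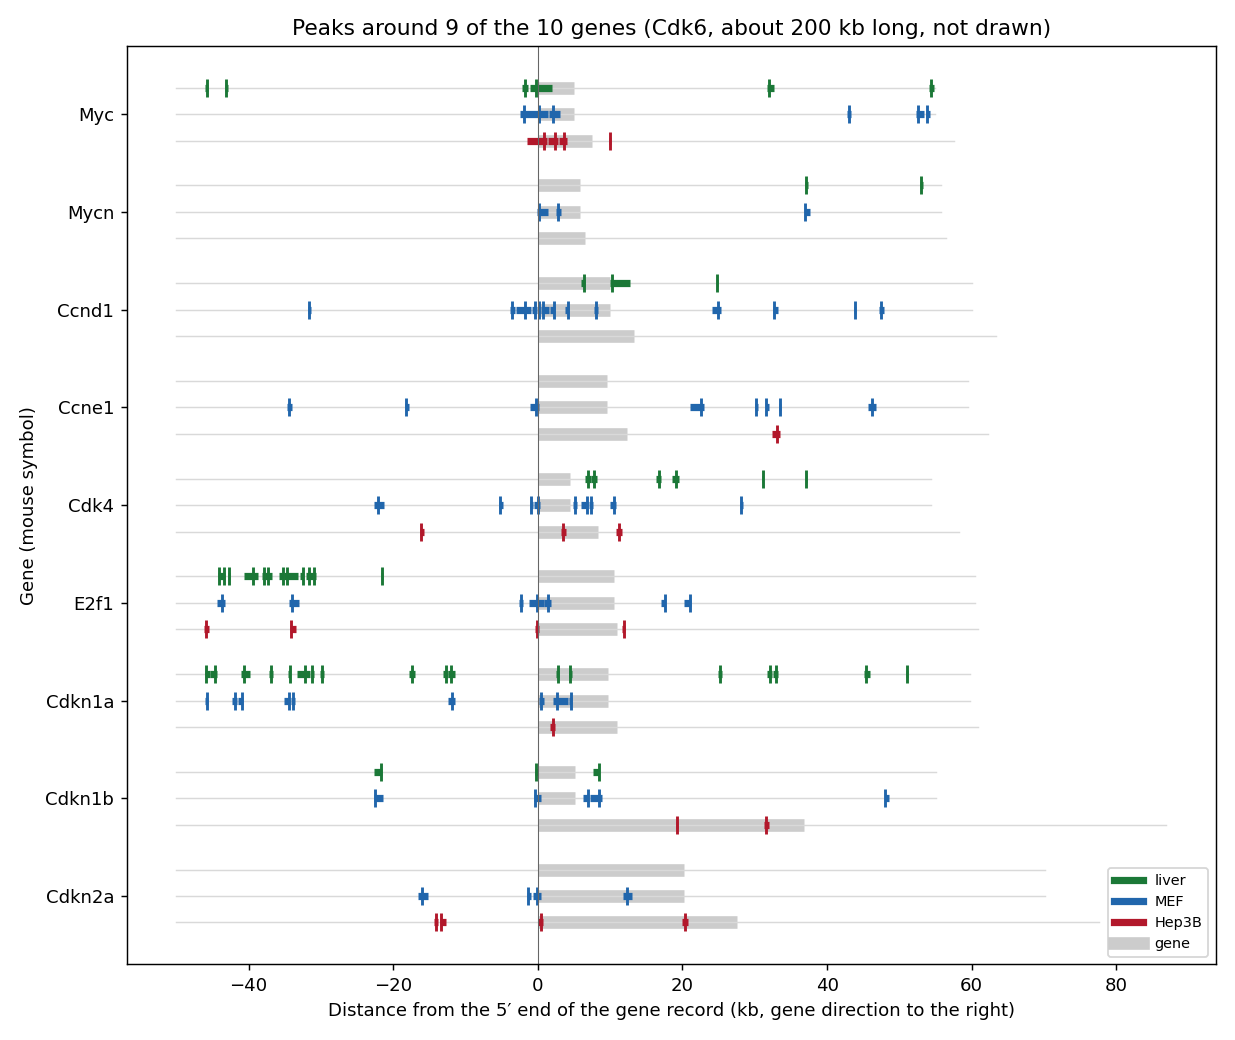
Peaks are drawn as bars and their summits as ticks at their distance in kb from the 5′ end of the gene record, with the direction of transcription to the right, in the liver (green), MEF (blue) and Hep3B (red) lists; grey boxes are the genes and thin lines the windows. Cdk6 is left out for its length. The liver peaks of E2f1 lie upstream only, from 21601 to 44119 bp, and those of Cdkn1a lie on both sides with few at the gene.

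Myc, the founding gene of its family, was the one gene of the set whose promoter peak stood above the median strength of all 3 lists. In liver a single broad peak of 3102 bp, chr15:61984302-61987403 (mm10), covered the promoter and first exon with its summit 189 bp upstream of the first TSS. Its summit −log10 p was 15.3, at the 76.3 percentile, and its area (the summed significance over the peak) was at the 97.2 percentile. A separate, weaker liver peak lay just upstream, its summit 1762 bp before the first TSS (chr15:61983197-61984058, percentile 41.0). In MEFs the same stretch held 3 peaks: one over that upstream site with its summit 1873 bp before the first TSS (chr15:61982979-61985361, percentile 81.4), one in the 5′ UTR 5 bp from a TSS (chr15:61985512-61986786, percentile 75.7) and one 27 bp from an internal TSS (chr15:61986988-61988391, percentile 30.6). All 3 MEF peaks overlapped liver peaks. The bases around the liver summit are shown because this is the strongest liver peak at any promoter of the 10 genes; they are chr15:61985152-61985251 on the plus strand and hold none of the motifs searched below.
liver Myc promoter: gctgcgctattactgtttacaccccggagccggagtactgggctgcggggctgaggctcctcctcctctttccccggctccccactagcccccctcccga

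The strongest liver peak near Myc was elsewhere, 29931 bp downstream of the nearest Myc TSS between genes (chr15:62017054-62018040, percentile 88.1), and no MEF peak overlapped it. Peaks at the start of Pvt1, a non-coding RNA gene next to Myc, were present in both mouse lists, with 1 peak in liver (percentile 59.3) and 2 in MEFs (percentiles 31.5 and 26.8). In liver 2 further intergenic peaks lay 43192 and 45771 bp upstream (percentiles 10.4 and 36.2), and in MEFs 1 lay 40993 bp downstream (percentile 7.21). Of the Myc window peaks, 3 of 6 in liver and 4 of 6 in MEFs were shared between the lists.

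The Hep3B MYC promoter peak was the strongest of the 24 Hep3B peaks. It spanned 2767 bp (chr8:127733885-127736651, hg38), its summit lay 46 bp from an annotated TSS in the first exon, which is coding in at least 1 annotated transcript, and its −log10 p of 8.59 stood at the 92.5 percentile. By area it stood at the 99.98 percentile of the Hep3B list. Of the other MYC peaks, one lay 12 bp from an internal TSS (percentile 6.17), one in an intron (percentile 13.9) and one 7662 bp past the nearest TSS (chr8:127745251-127745592, percentile 76.6). MYC thus had 4 peaks, 3 of them in the gene body.

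Mycn, which encodes the MYC paralogue of embryonic and neural tissue, was bound at its promoter in MEFs only. The MEF peak of 1538 bp (chr12:12940516-12942053, mm10) had its summit in the 5′ UTR 125 bp from a TSS, at percentile 75.9, and a weaker one lay in the intron (percentile 15.6). In liver the nearest summit was 35811 bp away, in an exon of the non-coding gene 4930519A11Rik (percentile 23.0), where a MEF peak overlapped (percentile 43.7). The strongest liver peak of the window was intergenic, 51701 bp from the TSS (percentile 76.5). In Hep3B the nearest summit to MYCN was 348759 bp away.

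The cyclin genes had promoter peaks in MEFs and none in liver or Hep3B. Ccnd1, the gene of cyclin D1, had 13 MEF peaks, a count at the 96.2 percentile of all genes. Of these, 7 stood in a row from 4159 bp inside the gene to 3676 bp upstream, of which 3 were promoter peaks at percentiles 59.0, 39.6 and 35.6. The strongest was 1796 bp upstream (chr7:144940863-144942908, mm10, percentile 86.0), followed by one in the intron 2176 bp downstream of the TSS (percentile 84.2). Others lay at the promoters of Fgf15 (percentile 68.6), which encodes a hormone of the gut, and of LTO1 (percentile 43.5).

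Liver had 3 Ccnd1 peaks and none at the promoter. The strongest was 2798 bp wide (chr7:144927198-144929995) and ended at the 3′ side of the gene, with its summit in the 3′ UTR of the neighbouring gene LTO1, 10197 bp from the Ccnd1 TSS. It was at percentile 90.8 by −log10 p and 99.1 by area, and no MEF peak overlapped it. The others lay in an exon of Ccnd1, 6359 bp from its TSS (percentile 69.7), and at the LTO1 promoter (percentile 12.8), and only the last was shared with MEFs. Hep3B had no peak in the CCND1 window; the nearest summit was 88915 bp from the TSS.

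Ccne1, the gene of cyclin E1, had no liver peak in its window, and the nearest liver summit was 76274 bp away. In MEFs it had 8 peaks and held the strongest of all 72. That peak (chr7:38084573-38086512, mm10, 1940 bp) was intergenic, 21906 bp from the nearest Ccne1 TSS on the 3′ side of the gene, with a −log10 p of 10.4. It ranked 165 of 40531, at percentile 99.6. The Ccne1 promoter peak (chr7:38107309-38108572) had its summit 217 bp upstream of the TSS and stood at percentile 95.1, and a peak 34367 bp upstream stood at 89.6. None of the 8 overlapped a liver peak. In Hep3B the only peak of the window was intergenic and 27922 bp from the nearest CCNE1 TSS (chr19:29844379-29845518, hg38, percentile 53.3).

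The first sequence below is the centre of that strongest MEF peak, chr7:38084952-38085051 on the plus strand, in which no motif searched was found. The second is the centre of the farthest downstream one, chr7:38061239-38061338 (45619 bp from the nearest Ccne1 TSS, percentile 81.8), shown because it is 1 of 3 assigned MEF peaks with a match to the palindromic PROX1 consensus at 2 mismatches (capitals); the match contains the core CGCCTT, the reverse complement of AAGGCG.
MEF Ccne1 strongest peak: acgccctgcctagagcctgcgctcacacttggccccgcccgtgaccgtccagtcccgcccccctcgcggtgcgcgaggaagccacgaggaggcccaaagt
MEF Ccne1 farthest downstream peak: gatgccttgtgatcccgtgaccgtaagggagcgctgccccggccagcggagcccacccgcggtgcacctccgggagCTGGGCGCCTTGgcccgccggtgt

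Of the kinase genes, Cdk4 had a strong promoter peak in both cultures and none in liver. The MEF peak (chr10:127062942-127063872, mm10) had its summit in the 5′ UTR, 16 bp from a TSS, and stood at percentile 94.5 with a −log10 p of 8.68. A small second promoter peak lay 878 bp upstream (percentile 37.5). The Hep3B peak (chr12:57752159-57752787, hg38) had its summit 112 bp upstream of the nearest CDK4 TSS and stood at percentile 83.0. Both promoters carry the E-box CACGTG, the site that MYC and its partner MAX bind, 3 times within 150 bp of the summit. Of the other own-promoter peaks of the 10 genes, 1 held an E-box, at Ccnd1 in MEFs. They are printed on the plus strand with the E-boxes in capitals, the mouse from chr10:127063410-127063529 and the human from chr12:57752489-57752608.
MEF Cdk4 promoter: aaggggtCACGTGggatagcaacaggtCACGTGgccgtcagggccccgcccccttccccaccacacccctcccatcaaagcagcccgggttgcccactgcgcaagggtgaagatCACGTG
Hep3B CDK4 promoter: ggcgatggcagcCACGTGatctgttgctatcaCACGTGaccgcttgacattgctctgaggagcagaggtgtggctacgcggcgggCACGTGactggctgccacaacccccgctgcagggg

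The nearest liver summit to a Cdk4 TSS was 6610 bp away, at the promoter of the neighbouring gene Tspan31, which encodes a tetraspanin (chr10:127070121-127070899, percentile 86.0). MEFs had peaks at the Tspan31 promoter too (percentiles 46.8 and 31.3), as did Hep3B at TSPAN31 (percentile 57.5). The strongest liver peak of the Cdk4 window, and of all 57, lay in an intron of Agap2, a gene for a GTPase-activating protein (chr10:127082075-127083028, −log10 p 21.2, percentile 96.9), 18821 bp from the nearest Cdk4 TSS and with no MEF peak over it. A promoter peak at Eef1akmt3 and Mettl1, which lie on the other side of Cdk4, occurred in MEFs (percentile 45.1) and in Hep3B (percentile 20.5).

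The Tspan31 and Agap2 peak centres are printed on the plus strand (chr10:127070428-127070527 and chr10:127082639-127082738), with the PROX1 core AAGGCG in capitals in the first and a match to the PROX1 consensus with 2 mismatches in capitals in the second. The core in the first was also within 150 bp of the MEF summit that overlaps this liver peak. The core and the match both lie beside A-rich runs.
liver Tspan31 promoter peak: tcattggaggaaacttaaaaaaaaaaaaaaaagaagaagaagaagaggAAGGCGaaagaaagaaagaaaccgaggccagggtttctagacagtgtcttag
liver Agap2 intron peak: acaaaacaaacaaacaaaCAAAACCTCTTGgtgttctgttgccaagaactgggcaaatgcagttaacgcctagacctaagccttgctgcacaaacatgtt

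Cdk6, a gene of 189.52 kb in mouse and 231.65 kb in human, had promoter peaks in all 3 lists, none of them strong. In liver the promoter peak (chr5:3344117-3344776, mm10) stood at percentile 6.62 with its summit 24 bp from a TSS in the 5′ UTR. The MEF peak over it (chr5:3344147-3344755) stood at percentile 49.9, 2 more MEF promoter peaks at 28.2 and 6.21, and a summit 1077 bp from a TSS (percentile 36.6) fell just outside the 1 kb limit. The Hep3B promoter peak (chr7:92832695-92833403, hg38) had its summit 834 bp from a TSS and stood at percentile 20.2. All 7 liver peaks lay in the gene body, 6 of them deep in introns from 95336 to 157248 bp past the nearest TSS (percentiles 29.6 to 68.2), and none of those 6 overlapped a MEF peak. The strongest MEF peak of the window was at the promoter of Fam133b (percentile 78.6), and the strongest Hep3B peak was in a CDK6 intron (percentile 66.7). One of the liver intron peaks is printed (chr5:3498982-3499081, plus strand), since a PROX1 consensus match with 2 mismatches (capitals) begins 4 bp before its summit.
liver Cdk6 intron peak: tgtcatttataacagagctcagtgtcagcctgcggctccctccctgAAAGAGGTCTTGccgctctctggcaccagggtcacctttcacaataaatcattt

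E2f1 encodes a factor that the retinoblastoma protein holds in check. In MEFs its promoter peak (chr2:154569101-154571079, mm10, 1979 bp) had its summit 150 bp upstream of the TSS, a −log10 p of 8.98 and percentile 96.0, the highest of all own-promoter peaks of the 10 genes in this list. In Hep3B the E2F1 promoter peak (chr20:33686244-33686722, hg38) had its summit 139 bp upstream of the TSS at percentile 76.6. In liver no summit was closer than 21601 bp.

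The windows on both sides of the species divide held the same neighbours. The PXMP4 promoter, of a peroxisomal membrane protein gene, carried the strongest Hep3B peak of the E2F1 window (percentile 92.3), a MEF peak at Pxmp4 (percentile 89.9) and a liver peak at Pxmp4 (percentile 67.3). The promoter of the zinc finger gene Zfp341 (human ZNF341) likewise carried a peak in Hep3B (percentile 86.3) and in MEFs (percentile 75.3) and 3 peaks in liver (percentiles 24.9, 23.1 and 9.41). Of the 12 liver peaks, 8 formed a row from the Pxmp4 introns to the upstream side of that gene, the strongest in an intron (chr2:154600996-154601995, percentile 96.0). Some peaks of the row are parted by short gaps only, as the strongest is from chr2:154600630-154600971.

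Promoter sequences of E2f1 and E2F1 are printed on the plus strand, from chr2:154569992-154570091 (mm10) and chr20:33686394-33686533 (hg38). Capitals mark the PROX1 core, AAGGCG on the minus strand, in the mouse and a pair of E2F sites (TTTGGCGC on the minus strand and TTTGCCGC on the plus strand) in the human.
MEF E2f1 promoter: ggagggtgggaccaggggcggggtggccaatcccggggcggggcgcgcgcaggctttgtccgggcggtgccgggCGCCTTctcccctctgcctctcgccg
Hep3B E2F1 promoter: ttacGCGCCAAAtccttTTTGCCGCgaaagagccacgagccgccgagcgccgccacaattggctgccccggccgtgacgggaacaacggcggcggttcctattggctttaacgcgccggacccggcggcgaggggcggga

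Cdkn1a, the inhibitor gene that p53 induces, was surrounded by liver peaks but weakly marked at the gene. It had 18 liver peaks, 16.401 per 100 kb of window, a density at the 97.9 percentile of all genes. These are peaks as called, and some neighbours are parted by short gaps only, such as chr17:29044923-29045638 and chr17:29045666-29046631. Upstream lay 11, from 11993 to 45883 bp before the nearest Cdkn1a TSS, many of them over Trp53cor1 (also known as lincRNA-p21, a p53-induced non-coding RNA gene) and the non-coding gene AC167363.1. The strongest was in an exon of both (chr17:29059599-29059960, mm10, −log10 p 18.8, percentile 92.0), 31181 bp upstream. Downstream lay 5, in introns of Rab44, a gene of the RAB GTPase family, of which the one at a Rab44 promoter stood at percentile 91.4. The liver promoter peak of Cdkn1a itself stood at percentile 13.3 and a gene body peak at 2.54.

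In MEFs the order was turned. The Cdkn1a promoter peak (chr17:29093096-29095183) had its summit 91 bp upstream of a TSS and stood at percentile 95.9, with a gene body peak next to it at 74.0 and a weak peak at the upstream TSS at 1.99. Of 6 MEF peaks upstream of the gene the strongest stood at percentile 84.8, and none lay in Rab44. In Hep3B the CDKN1A promoter peak was the only peak of the window (chr6:36678118-36678802, hg38), 193 bp upstream of a TSS and at percentile 45.7. Of the window peaks, 6 of 18 in liver and 6 of 9 in MEFs were shared, among them the promoter peak and one at the start of Trp53cor1, 11880 bp upstream of Cdkn1a in MEFs (percentile 62.5) and 11993 bp upstream in liver (percentile 88.0). The centre of that MEF peak is printed from chr17:29079049-29079148 (plus strand), a stretch that the liver peak also covers. It is shown because the same match to the PROX1 consensus with 2 mismatches (capitals) lay within 150 bp of both summits. The liver summit lies outside the printed bases, and the match begins 97 bp after it. The promoter peaks of Cdkn1a had no such match in any list.
MEF and liver peak at the Trp53cor1 start: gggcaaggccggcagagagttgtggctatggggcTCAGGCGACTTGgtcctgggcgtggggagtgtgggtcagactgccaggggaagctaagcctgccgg

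**Figure D3:**
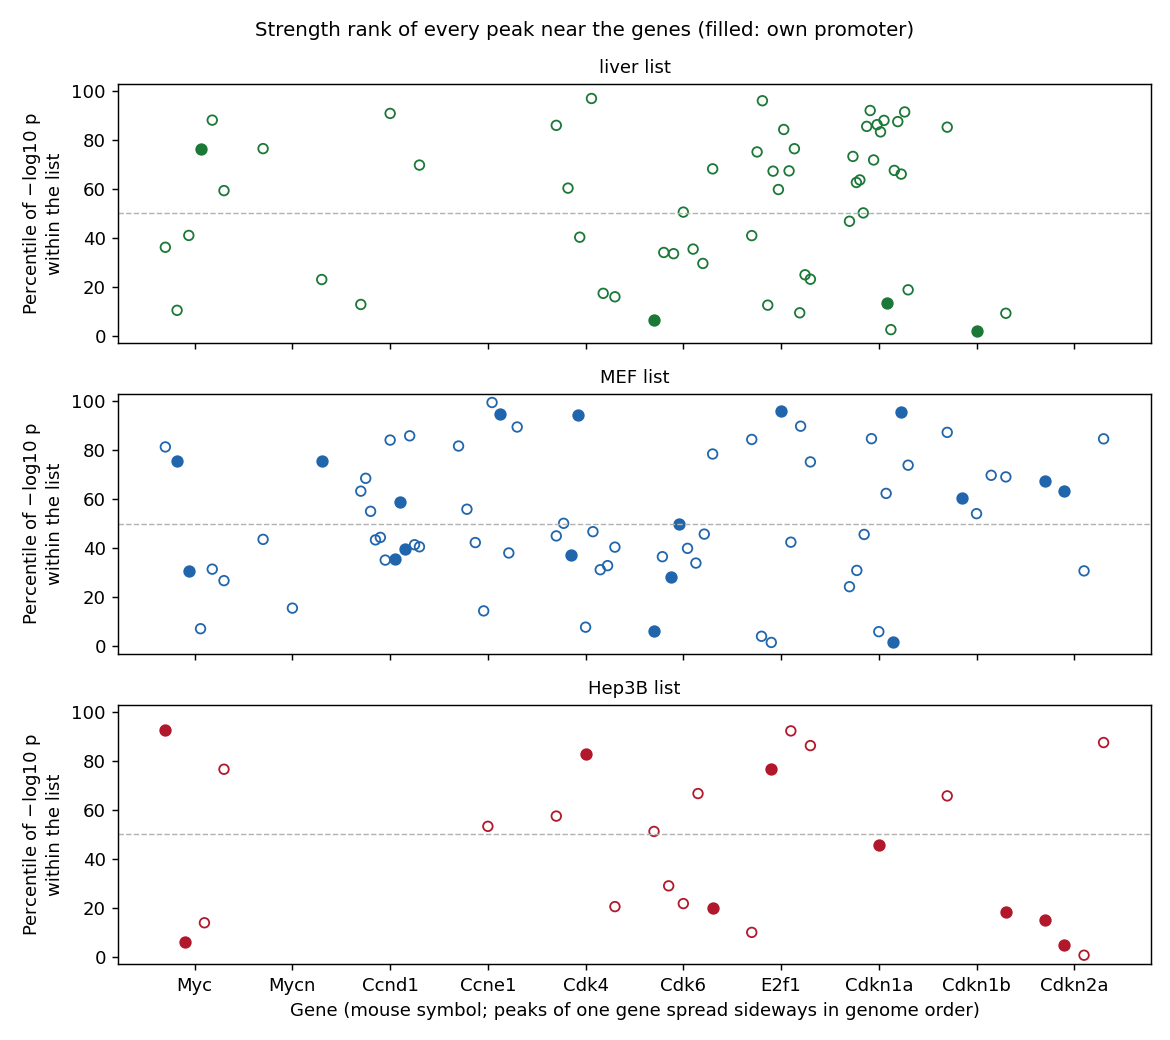
Each point is a peak, at the percentile of its summit −log10 p within its own list (vertical axis) and grouped by gene, with filled points for peaks within 1 kb of the gene's own TSS. In liver 3 of the 4 filled points lie at or below percentile 13.3 and most points of Cdkn1a lie above 50; in MEFs the strongest filled points of Ccne1, Cdk4, E2f1 and Cdkn1a lie above 90. The axes of the 3 panels cannot be compared as signal.

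Cdkn1b, whose product keeps resting cells out of the cycle, had promoter peaks in all 3 lists. In liver the peak (chr6:134920008-134920433, mm10) had its summit 299 bp upstream of the first TSS and stood at percentile 2.03, the lowest of the 57 liver peaks. In MEFs the overlapping peak (chr6:134919904-134920837) had its summit 338 bp upstream and stood at percentile 60.6. In Hep3B the CDKN1B promoter peak (chr12:12716780-12717399, hg38) lay 260 bp upstream of a TSS at percentile 18.3, and a stronger one lay in an intron of the long gene record (percentile 65.8). The strongest peak of the window in both mouse lists was at the promoter of Gpr19, an orphan receptor gene upstream of Cdkn1b (percentile 85.2 in liver and 87.4 in MEFs). A peak at Lockd, a non-coding RNA gene just downstream, was also in both (percentiles 9.22 and 69.9). All 3 liver peaks of the Cdkn1b window overlapped MEF peaks, and 3 of 5 MEF peaks overlapped liver peaks.

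Cdkn2a had no liver peak within 50 kb; the nearest liver summit was 141173 bp from the nearest TSS. In MEFs both of its annotated starts were occupied. The downstream start, of the INK4A transcript, had a summit 170 bp upstream (chr4:89281607-89282909, mm10, percentile 67.7), and the upstream start, of the ARF transcript, had one 145 bp upstream (chr4:89294190-89295369, percentile 63.5). Cdkn2b, the neighbouring INK4B gene, had the strongest peak of the window (chr4:89309850-89311282, percentile 84.8). Hep3B showed the same arrangement, with CDKN2A peaks low in their own list by −log10 p: percentile 15.1 at one start (chr9:21974579-21975316, hg38, summit 75 bp away), percentile 4.67 at the other (chr9:21994610-21995211, 377 bp away), and percentiles 87.5 and 0.689 at CDKN2B. By area the 2 CDKN2A peaks stood at percentiles 54.3 and 18.6 of the Hep3B list. Cdkn2a thus had a called peak at the 2 starts named here in each culture, and Cdkn2b carried the strongest peak in each. The Hep3B peak at the other start had a −log10 q of 1.77, which the stricter limit of 2 removes. Both Hep3B CDKN2A peaks had areas (478 and 257) below the lowest liver area of 500. From a further group of annotated CDKN2A starts the nearest Hep3B summit was 3541 bp away.

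Printed on the plus strand are the stretch below the summit at the mouse ARF start, chr4:89294678-89294807, with a PROX1 core (AAGGCG) and an E2F site (TTTCCCGC on the minus strand) in capitals, and the centre of the strongest human CDKN2B peak, chr9:22009307-22009406, which holds none of the motifs.
MEF Cdkn2a upstream start: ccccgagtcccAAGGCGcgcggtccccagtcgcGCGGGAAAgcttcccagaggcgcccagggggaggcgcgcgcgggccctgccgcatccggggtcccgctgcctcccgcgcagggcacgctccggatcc
Hep3B CDKN2B promoter: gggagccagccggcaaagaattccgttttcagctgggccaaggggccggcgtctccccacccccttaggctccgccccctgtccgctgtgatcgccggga

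Liver and MEF peaks near these genes overlapped in 20 cases in each list, which is 35.1% of the 57 liver peaks beside 18.9% of all liver peaks, and 27.8% of the 72 MEF peaks beside 21.4% of all MEF peaks. All 4 liver promoter peaks overlapped a MEF peak, while 5 of 18 MEF promoter peaks overlapped a liver peak. Away from any coding promoter 10 of 45 liver peaks and 9 of 42 MEF peaks were shared. The sharing of all promoter peaks and of all other peaks of the lists was not computed. Whether this split is particular to the 10 genes is therefore unknown. Requiring summits within 100 bp left 5 shared peaks in each list, and the share of all peaks under that rule was not computed. Wider peaks overlap more readily. The median width of the assigned peaks was 632 bp in liver and 717.5 bp in MEFs, beside 504 and 646 bp over the lists.

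Motifs around the summits were counted beside all peaks of the same list on assembled chromosomes (14361 of 14369 in Hep3B). In the 300 bp around each summit, on both strands, the PROX1 consensus was matched with at most 2 mismatches at 3 of 57 liver peaks (5.26%, beside 6.17% of all liver peaks), 3 of 72 MEF peaks (4.17%, beside 4.97%) and 0 of 24 Hep3B peaks (beside 5.01%). None of the 31 own-promoter peaks in the 3 lists held such a match, which over all promoter peaks occurred at 7.69% in liver, 5.14% in MEFs and 4.96% in Hep3B, so a count of 0 is near these shares. The core AAGACG or AAGGCG occurred at 5, 6 and 4 peaks (8.77%, 8.33% and 16.7%), beside 9.65%, 12.7% and 20.4% of the lists; it forms part of the consensus, so the counts are not separate. The E-box CACGTG occurred at 2, 4 and 2 peaks, beside 4.9%, 6.53% and 8.22% of the lists. An E2F site (TTTCGCGC, TTTGGCGC, TTTCCCGC or TTTGCCGC) occurred at 0 liver peaks (beside 0.841%), at 4 MEF peaks (5.56%, beside 1.99%) and at 2 Hep3B peaks (8.33%, beside 3.58%). In MEFs these were peaks of Myc, Ccnd1, Cdkn1b and Cdkn2a, and in Hep3B of MYC and E2F1. Of the own-promoter peaks, 0 of 4 in liver, 2 of 18 in MEFs and 2 of 9 in Hep3B held an E2F site. Over all promoter peaks the shares were 2.26%, 4.03% and 4.86%, higher than over all peaks. In the 300 bp windows the median GC content reached 48.3% (liver), 57.0% (MEFs) and 64.8% (Hep3B), beside 46.7%, 51.7% and 61.3% over the lists. A letter match is not a binding site.

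Beyond the 10 genes, 80 related genes in 9 classes were counted. A promoter peak was present at 24 of 80 in liver (30.0%), 79 of 80 in MEFs (98.8%) and 65 of 80 in Hep3B (81.2%), beside the 26.5%, 55.1% and 43.6% of all genes given above. Tfdp1, which encodes the dimerisation partner of E2F factors, was the gene missed in MEFs. In all 3 lists 20 genes had one, in both cultures but not liver 44, in MEFs only 11, and in liver only 0. Over the 15744 genes whose symbols match between the species, these patterns made up 21.9%, 23.7%, 17.0% and 3.46%. Where present, the strongest promoter peak had a median percentile of 18.5 in liver, 87.5 in MEFs and 74.1 in Hep3B, beside 37.0, 74.7 and 63.8 over all genes with one.

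By class, the partners and antagonists of MYC (Max, Mxd1, Mnt and others) had promoter peaks at 5, 10 and 9 of 10 genes in liver, MEFs and Hep3B, cyclins at 2, 6 and 4 of 6, kinases and their activators at 1, 7 and 6 of 7, RB and E2F genes at 3, 11 and 8 of 12, and other CDK inhibitors at 1, 4 and 3 of 4. The p53 axis and protein turnover genes had them at 4, 7 and 7 of 7, replication genes at 3, 14 and 12 of 14, MYC-activated growth genes at 3, 10 and 9 of 10 and mitosis genes at 2, 10 and 7 of 10. The highest percentiles in liver were at Tk1 (79.6), a thymidine kinase gene, Trp53 (45.5) and Cdkn2d (36.6), an INK4-type inhibitor gene. In MEFs they were at E2f3 (99.85), Cks1b (99.7), whose product helps degrade the CDKN1B protein, and Pa2g4 (99.7), and in Hep3B at CDKN2D (99.4), PA2G4 (99.0) and MCM3 (98.6), a subunit gene of the replicative helicase. In MEFs the Tk1 promoter peak stood at percentile 3.91.

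**Figure D4:**
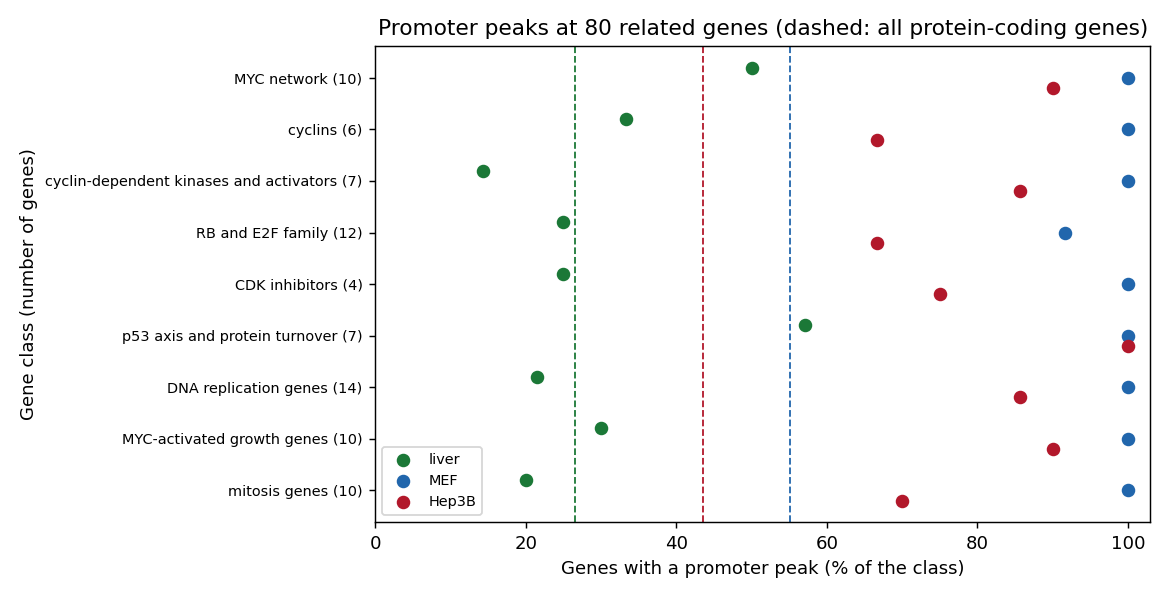
Points give the percent of genes in each class (number of genes in brackets) with a promoter peak in the liver, MEF and Hep3B lists; dashed lines are the shares of all protein-coding genes, 26.5%, 55.1% and 43.6%. The MEF points lie at the right edge except for the RB and E2F class at 11 of 12 genes, and the liver points scatter around the liver line.

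Among 3448 genes with a promoter peak in all 3 lists, those whose percentiles were nearest to the Myc values (76.3 in liver, 75.7 in MEFs and 92.5 in Hep3B) were RBFOX2, DDX10, VGLL4, PEX26 and CSAD, with Euclidean distances over the 3 percentiles from 5.81 to 6.69. RBFOX2, the nearest, had percentiles of 70.7, 74.5 and 93.0. Of the 10 genes, the other 3 with a promoter peak in all lists had far lower values in liver, 6.62 for Cdk6, 13.3 for Cdkn1a and 2.03 for Cdkn1b.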

How the data were processed

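CUT&RUN peak lists for 3 antibody groups (5 liver PROX1, 3 MEF FLAG and 3 Hep3B FLAG samples) were analysed. Following the methods of the study, the authors trimmed reads with Trim Galore 0.6.6, aligned them with Bowtie2 2.4.2 to mm10 or hg38 with nf-core/cutandrun; Genrich 0.6.1 then gave 1 consensus list per group, leaving out duplicates and mitochondrial reads. The study describes its PROX1 sites as high-confidence relative to IgG. The calling command names no control library, so how the IgG samples entered the lists is not given in the sources used here. For each peak the authors deposited a signal value (the summed area of significance along the peak) and, for its summit, a −log10 p and a −log10 q; the authors did not scale these between lists. The lowest deposited area (signal) is 500 in liver and 200 in the other lists. The lowest −log10 p is 6.089 in liver, 3.329 in MEFs and 3.935 in Hep3B, and the MEF median is 5.964. The same percentile therefore stands for a different −log10 p in each list.

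TSSs of protein-coding transcripts came from GENCODE M21 (mouse) and 44 (human). Windows (50 kb), promoters (1 kb), sharing (overlap of 1 bp) and percentiles were computed in Python 3.11.15 with pandas 2.3.3, after the counting was tested on simulated summits. All peaks fitted within the chromosome lengths of the reference genome of their build. Motifs were searched in 300 bp around each summit. The PROX1 consensus, the 80 related genes and the marker lists were written from general knowledge, and the genes and lists were chosen with earlier results of these data known. Named were all 10 genes in each list, the strongest peak of each window, promoter peaks, genes with a TSS at the strongest summit, the 3 related genes with the highest promoter percentile per list and the 5 genes most like Myc; other window peaks were named after their values were seen. Depth per sample and replicate spread are unknown because the lists pool samples, so no test was run. IgG lists and lists per sample were not used here. Alternatives were other thresholds, windows, promoter sizes, TSSs, definitions of sharing, ranks and mismatch limits.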

Additional observations from a re-analysis of the deposited data

How the results depend on the processing

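Of 123 recomputed counts over 29 results, 95 stayed within 1.5 times the reported count. All counts under a stricter q (−log10 q of at least 2) or a minimum length of 50 bp were among them. Some settings removed no peak and so could not change a count. The 50 bp length removed none in any list, and the stricter q and the area floor removed none in liver. The cut to 14369 top peaks removed none in Hep3B. The number 95 is therefore no measure of stability. With the 14369 top peaks of each list, liver kept 20 window peaks. Of the 10 genes 1 (Myc) kept a liver promoter peak, as did 1 of the 80 related genes, where 4.97% of all genes had one. MEFs kept 24 window peaks and 7 of the 10 genes with a promoter peak, where 33.8% of all genes had one. Of these window peaks, 2 of 20 in liver and 3 of 24 in MEFs were shared, and the shares over the cut lists were not computed. With the lowest liver area as the floor, MEFs kept 40 window peaks, and Hep3B kept 8 window peaks and 5 genes with one. Of the 10 genes 2 kept a Hep3B promoter peak, where 26.7% of all genes had one. The 10 genes thus no longer lay above the share of all genes. Of the 80 related genes 43 kept a Hep3B promoter peak, and these still lay above that share. Windows of 10 kb held 17 liver and 41 MEF peaks, and windows of 100 kb held 100 liver peaks. With the 5′ end of the gene record as the only TSS, 2 genes in liver and 3 in Hep3B had a promoter peak. With all TSSs these counts were 4 and 7, so they depend on which starts are used. In MEFs all 10 genes kept one. The share of all genes under the single-TSS rule was not computed, so whether the 10 genes exceed it is unknown. Summits within 100 bp left 5 shared peaks in either list, with no share over all peaks computed. The PROX1 consensus occurred at 0 liver and 0 MEF peaks with at most 1 mismatch, beside 0.355% and 0.318% of the lists. With at most 3 mismatches it occurred at 30 liver, 35 MEF and 14 Hep3B peaks (52.6%, 48.6% and 58.3%). Such a loose match was also present at 46.5%, 42.2% and 41.6% of all peaks of the lists. In 200 bp the PROX1 core occurred at 3 liver, 3 MEF and 2 Hep3B peaks (5.26%, 4.17% and 8.33%), beside 6.63%, 8.32% and 14.6% of the lists. The E-box occurred there at 1 liver peak (1.75%, beside 3.26%) and E2F sites at 0 Hep3B peaks (beside 2.44%). No paired analysis was possible because each list pools the replicates of a group, and for the same reason no replicate could be left out. The floor of the area and the number of peaks differ between the lists, and the depth behind them is unknown.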
